A study of Mus musculus with 21 samples.

Results

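The 10 genes described here carry the insulin and insulin-like growth factor (IGF) signal in the brain: the ligand genes Igf1 and Igf2, the receptor genes Insr and Igf1r, the binding protein genes Igfbp2 and Igfbp5, the adaptor genes Irs1 and Irs2, and the transcription factor genes Foxo1 and Foxo3. They were chosen by name for their place in the pathway, and the group was selected on the comparison of treatments, in which Irs2 was among the largest increases. The treatment differences of the 10 genes are therefore given as descriptions without a test. All 10 were among the 16318 genes of the deposited table and among the 16303 that passed a filter on low counts.

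The RNA came from the whole brains of 21 SAMP8 mice, an inbred senescence-accelerated strain used as a model of sporadic Alzheimer's disease. Of these, 12 PBS-treated mice (6 female and 6 male) received phosphate-buffered saline, and 9 HsTX1[R14A]-treated mice (3 female and 6 male) received HsTX1[R14A], a peptide that blocks the voltage-gated potassium channel encoded by Kcna3, at 1 mg/kg. Injections were subcutaneous, began at 4 months of age and went on every other day for 8 weeks. All mice used here carried the SAMP8 background, and each library came from 1 mouse. The mice were housed in groups, and treatment was randomized within each cage. Because whole brains were used, fewer cells of a type and less RNA per cell cannot be told apart in any value below.

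Insulin and the IGFs bind the related receptor tyrosine kinases encoded by Insr and Igf1r, while the binding proteins hold IGFs in the extracellular fluid and control their access to the receptors. The activated receptors phosphorylate the adaptors Irs1 and Irs2, which recruit phosphatidylinositol 3-kinase (PI3K) and so activate the kinase AKT. AKT in turn feeds mTOR and GSK3 and keeps the FOXO factors out of the nucleus. In brain the pathway is known for its roles in neuronal survival, metabolism and myelination, and in liver Irs2 is a known target of FOXO factors and of the cAMP-responsive factor CREB.

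The 300 bases around the start of Irs2 and Irs1 are shown as a description, because both adaptor genes had higher levels in treated mice and their windows share some letters. Both are from RefSeq on build GRCm38.p6, read 5′ to 3′ on the minus strand, from 250 bases before to 50 bases after the annotated start. The Irs2 window is chr8:11008880-11009179 and the Irs1 window is chr1:82291390-82291689. In GENCODE the start of Irs2 is given as chr8:11008458, which lies downstream of this RefSeq window and outside it. The GENCODE start of Irs1, chr1:82291416, lies inside its window. Capitals mark the E-box CACGTG and the insulin response element core TGTTTTG, searched on both strands, and the pair was chosen after these windows had been read.
Irs2: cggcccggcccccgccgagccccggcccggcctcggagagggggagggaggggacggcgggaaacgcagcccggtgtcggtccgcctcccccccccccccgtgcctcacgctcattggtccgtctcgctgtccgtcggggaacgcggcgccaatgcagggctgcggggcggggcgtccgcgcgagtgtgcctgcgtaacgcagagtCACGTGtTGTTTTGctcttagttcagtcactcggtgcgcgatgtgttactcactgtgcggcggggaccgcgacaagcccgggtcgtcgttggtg
Irs1: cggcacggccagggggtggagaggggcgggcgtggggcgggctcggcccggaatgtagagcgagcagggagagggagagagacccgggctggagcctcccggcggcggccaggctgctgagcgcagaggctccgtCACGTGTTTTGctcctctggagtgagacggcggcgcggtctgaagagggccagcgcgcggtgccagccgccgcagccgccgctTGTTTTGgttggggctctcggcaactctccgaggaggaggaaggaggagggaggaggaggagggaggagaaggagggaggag
In the Irs2 window the E-box starts at base 207 and TGTTTTG at base 214, counted from the 5′ end. In the Irs1 window the E-box starts at base 136 and overlaps TGTTTTG at base 140, and a further TGTTTTG starts at base 219.

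Windows were found for 9 of the 10 genes, 13 in all, and Insr was not matched. The E-box was in 3 of the 13 windows, those of Irs1 and Irs2 and 1 of Igfbp2, against 7.15% of all 32851 mouse windows. TGTTTTG was in 2, against 6.28%. Both motifs together were in those of Irs1 and Irs2, against 0.408% of all windows. Since these motifs were chosen from the windows themselves, the shares cannot show that the matches are unusual. The FOXO element GTAAACA (3.65% of all windows) and the CREB element TGACGTCA (1.79%), searched on both strands, were in 0 of the 13. Only exact matches of these letters were searched, so this does not show that the windows lack sites for FOXO factors or CREB. The matches are descriptions of letters and not of bound sites. The Irs2 window was 72.0% G or C and the Irs1 window 71.3%, against a median of 52.7%.

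Expression is given in CPM, the estimated counts of a gene scaled to a common library size after TMM scaling. To compare genes, CPM was divided by the length in kilobases of the longest annotated transcript. On that per-length scale in the PBS-treated mice, the binding protein genes were highest, with Igfbp2 at 32.8 ± 3.57 and Igfbp5 at 27.1 ± 8.83 CPM per kb (SD, n = 12). Igf2 (9.39 ± 2.55) and Foxo3 (7.94 ± 2.46) followed, then Foxo1 (4.15 ± 0.84) and Insr (3.65 ± 0.714). Igf1 (2.09 ± 0.343), Irs2 (1.81 ± 0.984) and Irs1 (1.63 ± 0.36) were lower still, and Igf1r was lowest at 0.686 ± 0.35 CPM per kb. The ranges of mean ± SD overlapped between Igfbp2 and Igfbp5, between Igf2 and Foxo3 and between Foxo1 and Insr. They also overlapped from Igf1 through Irs2 to Irs1, and between Irs2 and Igf1r. This overlap is one of spread between mice, and the order of genes within each mouse was not tested. Irs2 and Igf1r were both lowest in PBS female 103 and highest in PBS female 84. In these 2 mice Irs2 was at 0.539 and 3.78 CPM per kb and Igf1r at 0.174 and 1.38. Genes with short dominant isoforms are understated on this scale.

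The genes also differed in how much they varied among mice of the same treatment. In PBS-treated mice the SD was 54.4% of the mean for Irs2 and 51.1% for Igf1r, a larger share than in 96.2% and 95.2% of tested genes. Igfbp2 was the steadiest, at 10.9%, followed by Igf1 at 16.4%, where the median tested gene was at 20.7%. The wide spread of the adaptor gene Irs2 and the receptor gene Igf1r was thus present without the peptide.

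**Figure D1:**
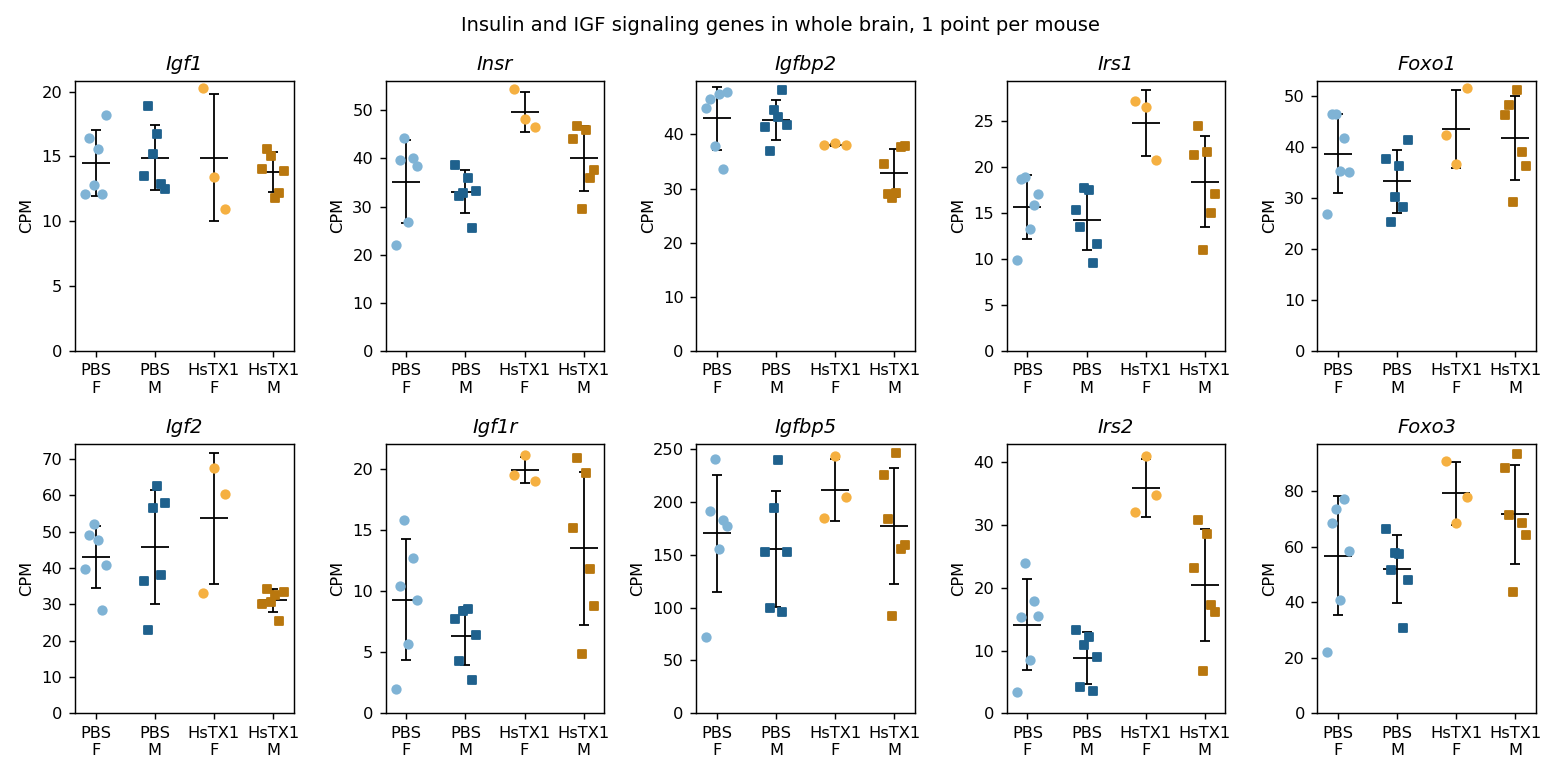
CPM (vertical axes, starting at 0) of the 10 genes in each mouse, by treatment and sex (F, female; M, male), with black bars for the mean ± SD of 6, 6, 3 and 6 mice. All 9 HsTX1[R14A]-treated mice lie below the PBS median of 43.9 CPM for Igfbp2, 8 of 9 lie above the PBS median of 11.5 CPM for Irs2, and the treatments overlap for every gene.

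Irs2 encodes the adaptor through which insulin and IGF receptors reach PI3K in neurons and other cells, and lies at chr8:10984681-11008458 (GRCm38). In PBS-treated mice its level was 3.41 CPM in the lowest, 11.5 at the median and 23.9 in the highest. In HsTX1[R14A]-treated mice it was 6.78, 28.5 and 41 CPM. The groups overlapped, with 8 of 9 treated mice above the PBS median and 5 above the highest PBS value. The 3 treated females, at 32.0, 34.7 and 41 CPM, were above every PBS mouse, whereas the lowest treated mouse, male 93, lay below the PBS median. The mean was 11.4 ± 6.22 CPM in PBS-treated mice (SD, n = 12) and 25.6 ± 10.7 in treated mice (SD, n = 9), and with sex in the edgeR model the difference was 1.27 on the log2 scale (SE 0.29), or 2.41-fold.

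Irs1, the related adaptor, at chr1:82233101-82291416, had a smaller difference. It ranged from 9.58 CPM through a median of 15.6 to 18.9 in PBS-treated mice and from 11 through 21.3 to 27.2 in treated mice. Of the 9 treated mice, 6 were above the highest PBS value, and male 93 was again the lowest treated mouse. The log2 difference was 0.50 (SE 0.15), or 1.41-fold. Genes on the opposite strand overlap Irs2 (9530052E02Rik) and Irs1 (Gm9747) and have no rows of their own, and of the 2 library kits named for these data, that of the methods keeps strand. Whether counting used strand is not given in the sources used here, and if it did not, reads of these genes cannot be told apart from those of the adaptors.

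Of the receptor genes, Igf1r (chr7:67952827-68233668), which encodes the receptor for both IGFs, differed more than Insr. It ranged from 1.99 CPM through a median of 8.06 to 15.8 in PBS-treated mice and from 4.86 through 19 to 21.1 in treated mice. Treated mice were above the PBS median in 8 of 9 cases and above the highest PBS value in 5, with male 93 lowest. The log2 difference was 1.09 (SE 0.28), or 2.13-fold.

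Insr (chr8:3122061-3279617), the insulin receptor gene, ranged from 22.1 CPM through 34.7 to 44.2 in PBS-treated mice and from 29.5 through 45.9 to 54.5 in treated mice. Again 8 of 9 treated mice were above the PBS median and the ranges overlapped. The log2 difference was 0.36 (SE 0.12), or 1.28-fold. All 4 receptor and adaptor genes thus had higher means in treated mice.

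Igfbp2, at chr1:72824503-72852474, encodes a binding protein abundant in brain and cerebrospinal fluid, and had a lower mean in treated mice. It ranged from 33.7 CPM through a median of 43.9 to 48.2 in PBS-treated mice and from 28.3 through 37.6 to 38.4 in treated mice. All 9 treated mice were below the PBS median, and 9 of 12 PBS-treated mice were above the highest treated value. The log2 difference was -0.30 (SE 0.08), so the treated level was 0.814 of the PBS level.

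Its neighbor on the chromosome, Igfbp5 (chr1:72857932-72874884), which encodes another IGF binding protein, had a log2 difference of 0.24 (SE 0.20), from 163 ± 53.0 CPM in PBS-treated mice to 188 ± 48.9 in treated mice (SD). The ligand genes had negative differences within their spread. Igf1 was at 14.7 ± 2.42 and 14.1 ± 2.77 CPM (log2 difference -0.06, SE 0.11), and Igf2 at 44.4 ± 12 and 38.6 ± 14.7 CPM (-0.19, SE 0.18). Values for Igf2 are uncertain because it overlaps the same-strand genes Gm49394 and Mir483, neither of which has a row of its own.

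The FOXO genes, whose products AKT holds in the cytoplasm, had higher means in treated mice. Foxo3 ranged from 22.1 CPM through 57.5 to 77.2 in PBS-treated mice and from 43.8 through 71.5 to 93.5 in treated mice, with a log2 difference of 0.47 (SE 0.18). Foxo1 was at 36.0 ± 7.27 and 42.4 ± 7.64 CPM (SD), a log2 difference of 0.27 (SE 0.12). For both genes 8 of 9 treated mice lay above the PBS median, with overlapping ranges. Foxo1 overlaps the same-strand gene Gm38034, which has no row of its own.

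Of all 16303 tested genes, 5144 (31.6%) were called for treatment by edgeR at an FDR of at most 0.05, 2526 (15.5%) higher and 2618 (16.1%) lower. Among the 10 genes, 4 were called higher (Irs2, Irs1, Igf1r and Insr), 1 lower (Igfbp2) and 5 were not called, and DESeq2 also called Foxo3. Nothing is read from this count, since the choice of genes used the same comparison. The median log2 difference of the 10 was 0.31, against -0.01 over all tested genes.

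The relation of level to transcript length varied among libraries, with overlapping ranges in the 2 treatments and a higher mean slope in treated mice. For each library, centered log2 CPM was regressed on log2 transcript length over 16224 genes, and the slope says how far long transcripts stood above their average level in that library. The slope was -0.0764 ± 0.161 in PBS-treated mice (SD, n = 12, from -0.384 to 0.147) and 0.102 ± 0.119 in treated mice (SD, n = 9, from -0.142 to 0.234). The longest transcript is 6323 bases for Irs2, 11409 for Igf1r, 9144 for Irs1, 9355 for Insr and 1307 for Igfbp2, while the median tested gene has 3284.

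The PBS mice lowest for Irs2, female 103 (3.41 CPM), male 90 (3.51) and male 101 (4.22), had the lowest slopes of that group, at -0.384, -0.338 and -0.181. The lowest treated mouse, male 93, had the lowest slope among treated mice. Without PBS mice 103 and 90, a comparison added after the values were seen, the log2 difference was 1.10 (SE 0.24) for Irs2, 0.92 (SE 0.22) for Igf1r, 0.41 for Irs1, 0.29 for Insr and -0.26 for Igfbp2, and 2887 genes were called.

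**Figure D2:**
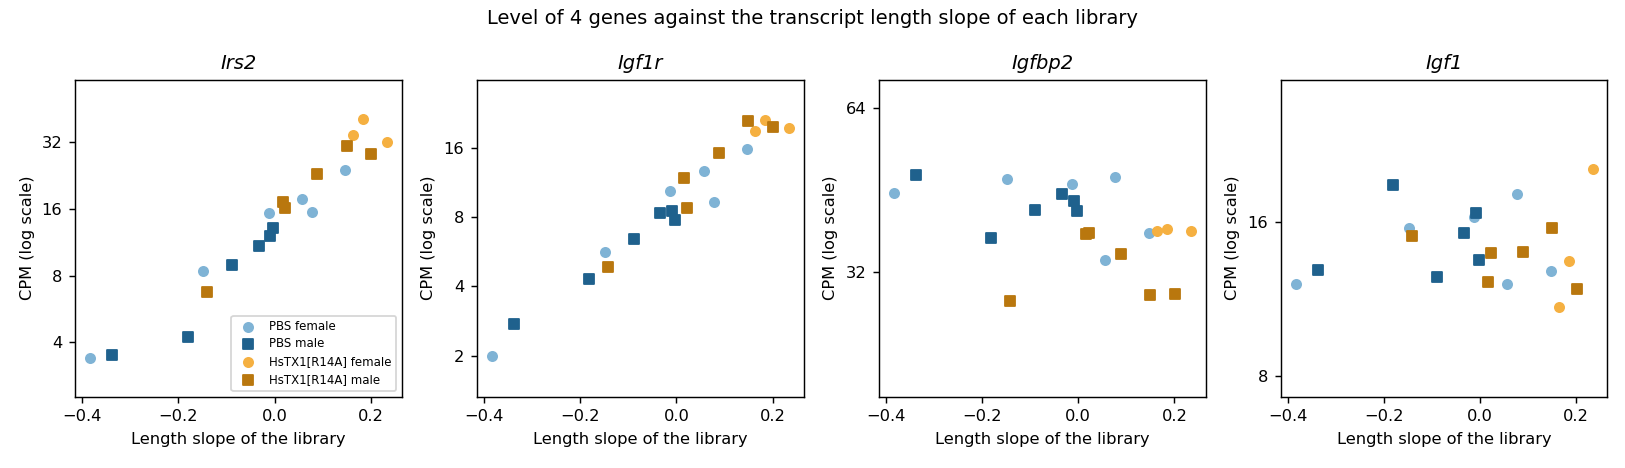
CPM (vertical axes, log scale) of Irs2, Igf1r, Igfbp2 and Igf1 in each mouse against the transcript length slope of its library (horizontal axes, centered log2 CPM per doubling of transcript length), colored by treatment and sex. Irs2 and Igf1r run from 3.41 and 1.99 CPM at the lowest slope, -0.384, up to 41 and 21.1 CPM at a slope of 0.184, while Igf1 stays between 10.9 and 20.3 CPM across all slopes.

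With the slope as a further term in the model, the log2 difference was 0.30 (SE 0.12) for Irs2, 0.13 (SE 0.11) for Igf1r, 0.06 (SE 0.10) for Irs1 and 0.00 (SE 0.05) for Insr. Igfbp2 kept most of its difference, at -0.24 (SE 0.09). Igfbp5 turned from 0.24 to -0.35 (SE 0.12), and Foxo1 and Foxo3 turned to -0.02 and -0.10. In this model edgeR called 0 genes for treatment, members included, with 1865 genes at an unadjusted p under 0.05. The slope is itself computed from the expression values and had a higher mean in treated mice, so the part of either in these differences cannot be told apart.

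Library names came in 2 forms, one carried by 15 mice (10 PBS-treated and 5 treated) and the other by 6 (2 and 4), and what the forms stand for is not given in the sources used here. With the form as a term, Irs2 differed by 1.23 (SE 0.30), Igf1r by 1.06, Irs1 by 0.49, Insr by 0.33 and Igfbp2 by -0.29, and Insr was no longer called among 1999 genes. Within the 15 mice the differences were 1.42 (SE 0.39) for Irs2, 1.19 for Igf1r and -0.38 for Igfbp2. Within the 6 mice they were 0.73 (SE 0.25), 0.72 and -0.08. In either set alone edgeR called 0 genes, with 5797 and 532 at an unadjusted p under 0.05.

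**Figure D3:**
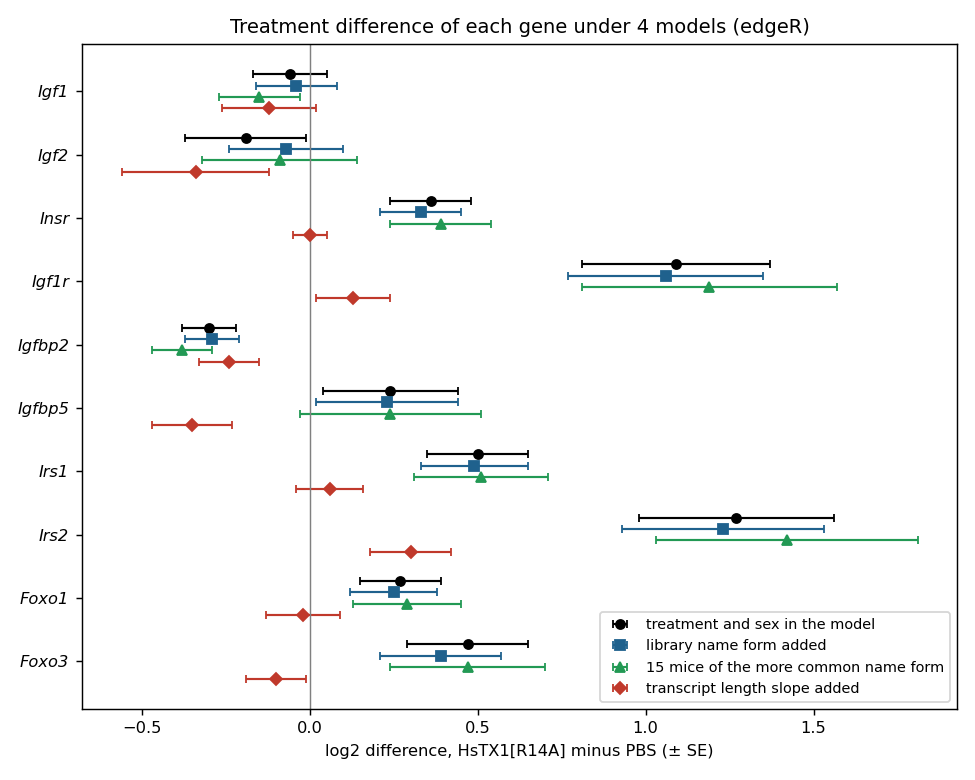
Treatment difference of each gene (horizontal axis, log2 difference of HsTX1[R14A] minus PBS, ± SE) under 4 edgeR models: treatment and sex alone, with the library name form, in the 15 mice of the more common name form, and with the transcript length slope. Irs2 lies at 1.27, 1.23, 1.42 and 0.30 under the 4, and Igfbp2 between -0.38 and -0.24.

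Sex was not used to choose the genes. All 10 had a positive female-minus-male difference with treatment in the model, with a median of 0.18 beside 0.01 for the whole table, but 0 of the 10 passed the test across all genes. Over the whole table edgeR called 9 genes for sex (0.0552%). Irs2 had the largest difference of the 10, at 0.74 (SE 0.29, edgeR unadjusted p = 0.0198, adjusted p = 0.446), and was the only one of them with an unadjusted p under 0.05. In PBS-treated mice its median was 15.4 CPM in 6 females and 9.92 in 6 males, with overlapping ranges, and among PBS-treated mice alone the difference was 0.68 (SE 0.42, edgeR adjusted p = 0.967).

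Igf1r was next, at 0.56 (SE 0.28, edgeR adjusted p = 0.446), and Igf1 was nearest 0, at 0.02 (SE 0.11). With the length slope in the model the sex difference of Irs2 was 0.21 (SE 0.10) and that of Igf1r 0.02 (SE 0.10). Differences of Insr, Igfbp5 and Foxo3 then turned negative, at -0.01, -0.11 and -0.19.

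The treatment difference was then compared between sexes by an interaction term. By edgeR, 0 of 16303 genes (0%) were called, with 270 at an unadjusted p under 0.05, and limma/voom and DESeq2 also called 0 (250 and 302 at an unadjusted p under 0.05). For Irs2 the difference was 1.34 (SE 0.46) in females and 1.22 (SE 0.40) in males, and for Igf1r 1.08 (SE 0.44) and 1.10 (SE 0.38). The female-minus-male difference of these treatment differences had a 95% interval from -1.09 to 1.33 for Irs2 and from -1.17 to 1.13 for Igf1r, too wide to show that the sexes respond alike.

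Igf2, a ligand gene expressed in brain mainly by leptomeninges, vessels and choroid plexus, had the lowest unadjusted p of the 10 for this interaction term. Treated males lay between 25.5 and 34.2 CPM, with a median of 31.6, and PBS-treated males between 22.9 and 62.5, with a median of 47.3. The 3 treated females were at 33.1, 60.3 and 67.4 CPM, and PBS-treated females lay between 28.5 and 52.0. The log2 difference was -0.56 (SE 0.21) in males and 0.32 (SE 0.25) in females, and these values differed by 0.88 (SE 0.33, edgeR unadjusted p = 0.0144, adjusted p = 1.0), which did not pass the test. Ranges overlapped within each sex.

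**Figure D4:**
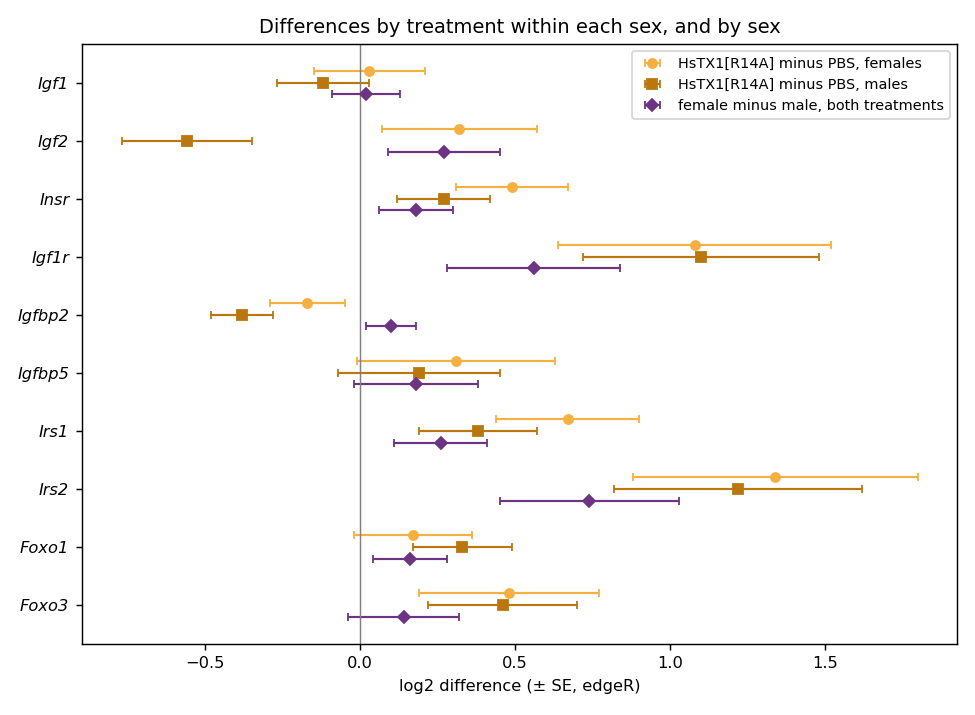
Log2 differences (horizontal axis, ± SE, edgeR) of each gene by treatment within females (3 against 6 mice), by treatment within males (6 against 6), and by sex over both treatments. Igf2 lies on opposite sides of 0 in females (0.32) and males (-0.56), while Irs2 lies at 1.34 and 1.22.

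Igf2 and Igfbp2 were set beside markers of the leptomeninges and choroid plexus, tissues that a whole-brain dissection can hold in differing amounts. The summed level of 12 leptomeningeal and fibroblast markers (Col1a1, Dcn and others) ranged from 65.1 to 258 CPM in PBS-treated mice and from 53.0 to 193 in treated mice, with a median log2 difference of -0.49 over the 12 and 1 of 12 called lower. The summed level of 12 choroid plexus markers (Ttr, Kl and others) ranged from 77.4 to 1170 and from 65.2 to 882 CPM, with a median of -0.27 and 0 of 12 called. Markers of neither tissue were at 0 in any mouse.

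Across the 21 mice, log2 CPM of Igf2 rose with the leptomeningeal marker score, the mean centered log2 CPM of the list, with Pearson r = 0.867 and Spearman rho = 0.908 (permutation p = 1e-05 for both, the smallest that 100000 resamples can give, adjusted p = 4e-05 over 4 relations). Without the 2 mice farthest from the median score r was 0.864, in the 12 PBS-treated mice 0.903, and in the 15 mice of the more common name form 0.846. With the choroid plexus score r was 0.357 and rho 0.427 (adjusted permutation p = 0.114 and 0.0538). The leptomeningeal marker scores of 5 of the 6 treated males were below 0, from -1.08 to -0.0267, and male 93 was at 0.146.

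Igfbp2 was related to the choroid plexus score, with r = 0.636 and rho = 0.597 over 21 mice (permutation p = 0.00214 and 0.00504, adjusted p = 0.00428 and 0.0101). Without the 2 mice farthest from the median score r fell to 0.499. It was 0.653 in the 12 PBS-treated mice, where it was 0.288 without the 2 farthest, so there the relation rests on those mice, and 0.672 in the 15 mice of the more common name form. With the leptomeningeal score r was 0.438 and rho 0.54 (adjusted permutation p = 0.0632 and 0.0165). The part of these tissues in the treatment difference of Igfbp2 was not tested.

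**Figure D5:**
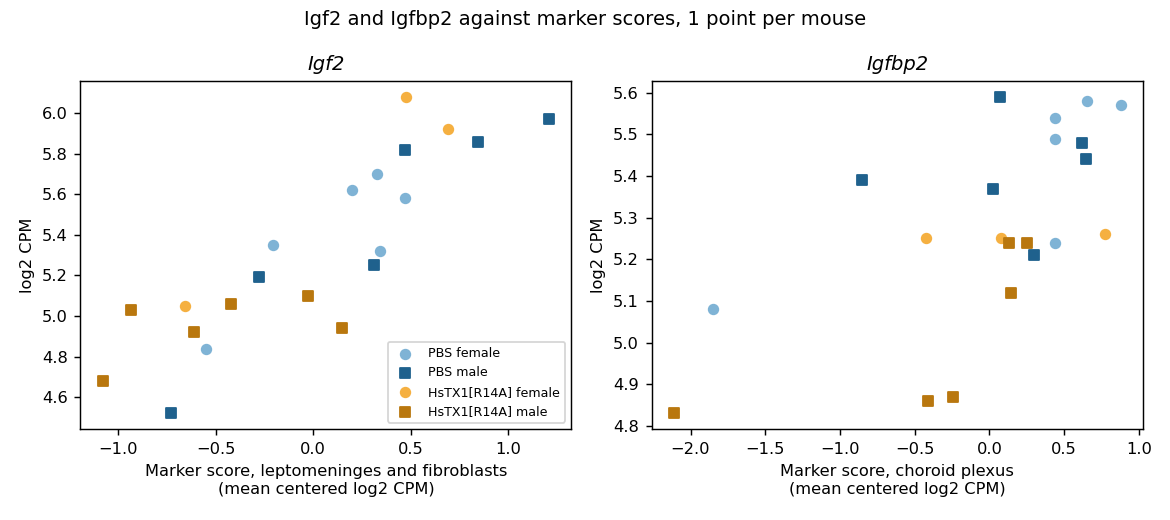
Log2 CPM of Igf2 against the leptomeningeal marker score (left) and of Igfbp2 against the choroid plexus marker score (right), 1 point per mouse, colored by treatment and sex. The Igf2 points rise together from scores of -1.08 to 1.21 (r = 0.867). The Igfbp2 points of treated mice lie mostly under those of PBS-treated mice, and levels at like scores were not compared by a test.

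Markers of other brain cells are given beside the shares of all tested genes called lower (16.1%) and higher (15.5%). Of 12 microglial markers 6 were called lower, with a summed level of 458 to 693 CPM in PBS-treated mice and 380 to 582 in treated mice. Of 8 oligodendrocyte markers 4 were called lower (4450 to 6840 and 3390 to 4980 CPM). Of 8 astrocyte markers 4 were called lower, while their summed level hardly differed (3330 to 4990 CPM, median 4480, and 3340 to 5040 CPM, median 4520). For neurons (5130 to 7880 and 6250 to 9230 CPM) and endothelium (73.2 to 136 and 87.3 to 153 CPM) 1 of 8 was called higher in each list, a share near that of all genes. These calls are from the model without the length slope, and with it 0 of all tested genes were called. The abundant neuronal and glial markers fit the labeled tissue, brain, and the part of these marker differences in the values above was not tested.

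The other genes of the pathway were counted from a list of 89, of which 83 were in the table and tested and 6 (Ins1, Ins2, Igfbp1, Igfals, Irs3 and Trim63) were not analysed here. By edgeR 25 were called higher, 6 lower and 52 not, a share of 37.3% beside the 31.6% of all genes, with a median log2 difference of 0.10. Of all tested genes 15.5% were called higher and 16.1% lower, so the calls on the list leaned to higher levels. With the library name form in the model the counts were 15 and 2, a share of 20.5%, where 1999 of all 16303 tested genes were called. With the length slope they were 0 and 0, which says nothing about the list, since 0 of all tested genes were called. The lists of adaptors, of binding proteins and their regulators, and of FOXO targets had called shares of 35.7%, 33.3% and 38.9%, near that of all genes in either direction. Those shares say little about the lists. By direction, all 5 called adaptors were higher, and the called FOXO targets were 4 higher and 3 lower. All 3 called genes on the list of binding proteins and their regulators were higher, among them the regulators Pappa2 and Stc1. For sex, 0 of the 83 were called by edgeR, and DESeq2 called 1, Stc1 (0.53, adjusted p = 0.00643).

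Among the receptors, Igf2r, which clears IGF2 by taking it to lysosomes, went from 15.2 ± 5.37 CPM in PBS-treated mice to 25.0 ± 7.56 in treated mice (log2 difference 0.76, SE 0.19, edgeR adjusted p = 0.0164), and Insrr, a receptor relative that senses alkaline pH, was at 0.582 and 0.569 CPM. Of 9 binding proteins and regulators 3 rose, including Pappa2, a protease that cuts IGF binding proteins (0.84, SE 0.22, edgeR adjusted p = 0.0177), and Stc1, which encodes a stanniocalcin (0.39, SE 0.12, edgeR adjusted p = 0.0239). Stc1 was higher in 8 of 9 treated mice than the PBS median. With the length slope in the model the differences were 0.54 (SE 0.25) for Pappa2, 0.45 (SE 0.14) for Stc1 and 0.19 (SE 0.11) for Igf2r. None of these was called in that model.

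Of 14 adaptors 5 rose, including Sh2b2, an adaptor of the insulin receptor (0.67, SE 0.19), and Sos1, the exchange factor that loads Ras (0.29, SE 0.08). The AKT phosphatase gene Phlpp2 rose by 0.48 (SE 0.12), with all 9 treated mice above the PBS median, and the PI3K catalytic subunit gene Pik3cb by 0.27 (SE 0.07). Their edgeR adjusted p-values ranged from 0.017 for Phlpp2 to 0.0221 for Sos1. With the length slope the 4 differences were 0.16, 0.06, 0.12 and 0.07 in the same order.

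Of 15 genes of mTOR, TSC and GSK3 6 rose and 2 fell, a called share of 53.3% beside the 31.6% of all genes. With the length slope in the model 0 of the 15 were called. Eif4ebp1, which encodes a translation repressor that mTOR inactivates, went from 3.2 ± 0.693 to 2.36 ± 0.627 CPM (-0.52, SE 0.13, edgeR adjusted p = 0.0161), with 8 of 9 treated mice below the PBS median. Gsk3b, a kinase gene whose product AKT inhibits, went from 192 ± 28.5 to 238 ± 29.2 CPM (0.33, SE 0.09, edgeR adjusted p = 0.0192), with all 9 above it. Of 8 receptor-level inhibitors 2 rose and 1 fell, a called share of 37.5%, near that of all genes. The inhibitors named are the phosphatase genes Ptprf (0.66, SE 0.21) and Ptpn1 (0.21, SE 0.07), with edgeR adjusted p-values of 0.0255 and 0.0294. With the name form in the model both lost their calls (edgeR adjusted p = 0.0539 and 0.0689). With the length slope the differences were -0.22 for Eif4ebp1, 0.07 for Gsk3b, 0.04 for Ptprf and 0.09 for Ptpn1, and none of these was called.

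Neither other FOXO gene passed the test, with Foxo6 at 0.44 (SE 0.22, edgeR adjusted p = 0.124) and Foxo4 at -0.12 (SE 0.07, edgeR adjusted p = 0.173). Of 18 known FOXO target genes 4 rose and 3 fell, with a median of -0.04. Sesn3, which encodes a sestrin that restrains mTOR, differed by 0.52 (SE 0.11, edgeR adjusted p = 0.0151) with all 9 treated mice above the PBS median. Bcl6, a transcriptional repressor gene, differed by 0.49 (SE 0.12, edgeR adjusted p = 0.017). With the length slope these became 0.31 (SE 0.11) and 0.14 (SE 0.09), and neither was called.

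The genes whose levels were most like those of Irs2 were found from log2 CPM after the mean of each treatment and sex group had been subtracted, over 21 mice and 13301 genes. They were Lrp5, a Wnt co-receptor gene (Pearson r = 0.993), Ubr4, a ubiquitin ligase gene (0.987), and Plxnb2, a semaphorin receptor gene (0.987), with longest transcripts of 8893, 15928 and 6497 bases. Of the 9 other insulin and IGF genes, Igf1r came first (r = 0.978, place 43), then Igfbp5 (0.932), Insr (0.916), Foxo3 (0.885), Irs1 (0.873) and Foxo1 (0.819). Igf2 (0.331), Igf1 (-0.0255) and Igfbp2 (-0.188) stood apart. All points share libraries whose length slopes differ, so these values are descriptions of how the genes vary together.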

How the data were processed

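RNA of 21 whole brains was extracted with an RNeasy Lipid Tissue kit. The library kit differs between the labels and the methods. Alignment by the authors was to GRCm38 with STAR in a nf-core pipeline, and they deposited estimated counts per gene from Salmon, not normalized, for 16318 genes. The filter behind these genes is not given in the sources used here. The authors' columns of fold change, p-value and FDR, and 53 per-sample columns (37 of CPM, 16 of counts of other libraries), were not used.

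Estimated counts (90.496% within 0.01 of a whole number) were rounded. Total counts per mouse ranged from 14917174 to 36207554 in PBS-treated and from 17552413 to 47613792 in HsTX1[R14A]-treated mice. How far depth and the spread between mice each limit precision was not tested. After filterByExpr 16303 genes remained. TMM scaling and the quasi-likelihood test of edgeR 4.0.16 (glmQLFit, glmQLFTest) were run in R 4.3.3 with treatment and sex in the model, Benjamini-Hochberg adjustment over all genes tested and an FDR threshold of 0.05. An interaction term compared treatment differences between sexes. SEs are the size of the log2 difference over the square root of F. Log2 CPM carries a prior count of 2. Correlations were tested by permutation (100000 resamples, two-sided). The scripts were tested on simulated data.

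The 10 genes and all lists were chosen with earlier results of these data known. Named beside them were the 2 genes of each pathway list with the lowest treatment p, any pathway gene called for sex, and the 3 genes most like Irs2. Coordinates and transcript lengths are from GENCODE on GRCm38, and promoter windows from RefSeq. Protein features were not analysed here. The count of 1 pathway list is not reported here. Alternatives were limma/voom (limma 3.58.1), DESeq2 1.42.0, RLE scaling, other filters on low counts, no sex term, the library name form or the length slope as covariate, either name form by itself and the removal of 1 mouse at a time.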

Additional observations from a re-analysis of the deposited data

How the results depend on the processing

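Treatment directions of all 10 genes were kept under limma/voom, DESeq2, RLE scaling, both other filters, the model without sex, the library name form as covariate and each mouse left out. The number of genes called for treatment, 5144, was 1999 with the name form, 2984 without a sex term, 2887 without PBS mice 103 and 90 (added after the values were seen), and 0 with the length slope, in the 15 mice or in the 6 mice alone. It was 2289 without PBS male 90 and 6614 without HsTX1[R14A] male 93. The pathway count, 31 genes, was 17 with the name form, 18 without a sex term, 0 with the slope, in the 15 or in the 6 mice, and 18 to 35 with 1 mouse left out, the lowest without PBS male 90. Fewer mice enter the 2 name-form subsets, and the cause of the other changes was not tested.

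Calls of the 10 genes for treatment are no evidence of stability, since the choice of genes used that comparison. Irs2, Igf1r, Irs1, Igfbp2 and Insr were not called with the length slope or in the 15 or the 6 mice, and Insr also not with the name form or without PBS male 90 or HsTX1[R14A] female 98. Foxo3 passed the threshold under DESeq2, RLE scaling, at least 10 counts in every mouse, and without any of PBS females 103, 84 and 104, PBS male 102 or HsTX1[R14A] male 93, and Foxo1 without the last. Igf1 turned to 0.23 in the 6 mice. With the slope Igfbp5, Foxo1 and Foxo3 turned to -0.35, -0.02 and -0.10.

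Genes called for sex numbered 26 by DESeq2 and 1 with at least 10 counts in every mouse, and 1 pathway gene, Stc1, was called by DESeq2. The sex difference of Igf1 turned to -0.00 with limma/voom, -0.01 with the slope and -0.05 in PBS-treated mice, and was -0.10 to 0.07 with 1 mouse left out. That of Igf2 was -0.09 in PBS-treated mice, and with the slope those of Insr, Igfbp5 and Foxo3 were -0.01, -0.11 and -0.19. The difference between sexes in the treatment difference of Igf1r turned to 0.17 with limma/voom, 0.01 with DESeq2 and 0.01 with the name form. With the slope it was -0.02 for Igfbp5, -0.03 for Irs2 and -0.12 for Foxo3. With 1 mouse left out it ran from -0.12 to 0.33 for Igf1, -0.22 to 0.20 for Igf1r, -0.04 to 0.25 for Igfbp5, -0.08 to 0.34 for Irs2 and -0.16 to 0.12 for Foxo3, and for Igf2 from 0.69 to 1.14 (adjusted p from 0.96 to 1.0). The correlation of Igfbp2 with the leptomeningeal score ran from 0.349 to 0.517 with 1 mouse left out and passed the threshold in 3 cases. Mouse numbers are not shared between groups, and the cages within which treatment was randomized are not given in the sample labels. No analysis paired or blocked by cage was therefore possible.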
